A study of Mus musculus with 16 samples.

Results

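The genes that cut, carry, load and display peptides on MHC class I and class II molecules were followed in mouse pancreatic tumours. The list holds 32 genes, 20 of class I and 12 of class II, each matched by its symbol to the array annotation and read from its probe of highest mean over the 16 arrays. Of these, 31 were matched and tested, 19 of class I and 12 of class II, among 30996 genes tested of 37554 on the array. The missing gene was Psme2, a subunit of the proteasome activator PA28. Its RefSeq accession stood only on 2 probes named Psme2b.

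Total RNA came from orthotopic pancreatic tumours grown in C57BL/6 female mice and was hybridised, Cy5-labelled, to 1-colour Agilent mouse arrays. There were 6 tumour samples of vehicle-treated mice, 5 taken 48 h after the start of treatment with ADH-503 and 5 taken after 10 days. ADH-503, called LA1 in the sample titles, is a small-molecule agonist of CD11b, an integrin chain of myeloid cells. The tumour line, the dose, the age of the mice and the time at which vehicle tumours were taken were not given in the sources used here, nor whether each sample came from its own mouse, so p-values measure only the spread between these samples. The vehicle group is the same in both treatment comparisons.

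Class I molecules show peptides from inside the cell to CD8 T cells. Proteasomes cut the peptides, the Tap1 and Tap2 transporter carries them into the endoplasmic reticulum, and a loading complex fits them to a heavy chain paired with beta-2-microglobulin. Class II molecules show peptides from the endosome to CD4 T cells and are made mainly by dendritic cells, macrophages and B cells. The invariant chain Cd74 fills their groove until H2-DM exchanges its remnant for a peptide, which H2-O limits. The coactivators Nlrc5, for class I, and Ciita, for class II, act at promoters through proteins bound to X and Y boxes, and interferon-gamma raises the genes of both classes. In tumours these genes are expressed by the cancer cells and by infiltrating immune cells, and in bulk RNA fewer cells of a type and less RNA per cell cannot be told apart.

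Of the 31 probes, 19 lie on mouse chromosome 17, between 34066022 and 37411409 in mm9 coordinates, where the MHC is. All 31 were well above background on all 16 arrays. The probe of H2-K1 matched probes named Gm11127, H2-L and Gm8909 at 44, 41 and 41 of 60 bases, and that of H2-T23 matched probes of the same symbols at 40, 48 and 44 bases. The accessions on the H2-Q7 probe belong to both H2-Q7 and H2-Q9, so its value cannot be given to 1 of them. Heavy chains are a family of related genes, and how far each probe tells them apart was not tested, so their separate values are uncertain.

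The members' promoters were searched for the letters of shared elements such as the Y box. Several are shown because the genes are described below as groups that could move together. RefSeq promoter windows on GRCm38.p6, from 250 bases before to 50 after the gene start, were at hand for 26 of the 32 members. Each was searched on both strands for CCAAT, the core of the Y box, and for 3 forms of the X2 box, TGACGTC, or else TGACGCA, or else TGATGTC. The other motifs were GTGAAAC, the core of the class I interferon response element, and GGGATTC, the core of the class I NF-kB site. The CCAAT core was in 18 of 26 members' windows and in 37.9% of 27025 genes' windows. The X2 forms were in 2 of 26, H2-Aa and Pdia3, and in 10.8% of all. Other spellings of the X2 box and other parts of the X box were not searched, so a window without a match may still hold one. The interferon core was in 6 of 26, H2-K1, H2-D1, H2-Q4, H2-Q7, H2-M3 and Psmb8, and in 2.58% of all. The NF-kB core was in 4 of 26, H2-K1, H2-D1, H2-Q4 and H2-Q7, and in 3.12% of all. Of 27025 genes, 9 held the Y box, interferon and NF-kB cores together, and 4 of those were these class I heavy chains. All the letters searched, CCAAT among them, were chosen from what is known of MHC promoters. Finding them in these related genes is therefore no independent result. The windows of Tap1 and Psmb9 share 275 of 300 bases, and the same CCAAT core is counted for both. A match describes the letters, not a bound site.

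The stretches below run 5′ to 3′ on the gene's strand, with every match to those motifs in capitals, from 180 bases before to 20 after the start, or from 250 before to 20 after for Tap1. H2-K1 is at chr17:34000328-34000527 on the minus strand, H2-D1 at chr17:35262914-35263113 on the plus strand and H2-Q7 at chr17:35438975-35439174 on the plus strand. H2-Aa is at chr17:34287804-34288003 on the minus strand, H2-Eb1 at chr17:34305687-34305886 and H2-Ob at chr17:34238725-34238924, both on the plus strand. Tap1 is at chr17:34187306-34187575 on the plus strand, and Psmb9 starts on the other strand 226 bases upstream, so both genes share this stretch.
H2-K1: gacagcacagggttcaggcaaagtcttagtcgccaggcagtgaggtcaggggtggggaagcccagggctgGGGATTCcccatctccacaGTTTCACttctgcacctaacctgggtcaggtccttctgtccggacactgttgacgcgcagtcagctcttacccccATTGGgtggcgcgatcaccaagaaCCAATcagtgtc
H2-D1: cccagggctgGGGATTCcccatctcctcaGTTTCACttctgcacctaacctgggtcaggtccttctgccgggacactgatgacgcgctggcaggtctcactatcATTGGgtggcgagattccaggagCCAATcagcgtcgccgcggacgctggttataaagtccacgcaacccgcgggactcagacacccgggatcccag
H2-Q7: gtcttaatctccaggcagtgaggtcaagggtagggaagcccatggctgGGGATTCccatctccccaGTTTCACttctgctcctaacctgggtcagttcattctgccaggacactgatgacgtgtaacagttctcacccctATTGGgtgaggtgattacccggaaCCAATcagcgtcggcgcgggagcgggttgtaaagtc
H2-Aa: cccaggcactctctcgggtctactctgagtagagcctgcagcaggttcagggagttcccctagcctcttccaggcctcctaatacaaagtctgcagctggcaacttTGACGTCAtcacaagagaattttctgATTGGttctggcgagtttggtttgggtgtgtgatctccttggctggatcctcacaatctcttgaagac
H2-Eb1: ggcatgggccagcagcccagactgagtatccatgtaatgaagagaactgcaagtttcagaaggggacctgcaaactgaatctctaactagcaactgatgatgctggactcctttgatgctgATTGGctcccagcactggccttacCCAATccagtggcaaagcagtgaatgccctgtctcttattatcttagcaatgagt
H2-Ob: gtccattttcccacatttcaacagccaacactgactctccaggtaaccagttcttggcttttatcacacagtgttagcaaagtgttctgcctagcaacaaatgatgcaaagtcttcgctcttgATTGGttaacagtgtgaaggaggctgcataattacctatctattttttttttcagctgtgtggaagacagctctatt
Tap1: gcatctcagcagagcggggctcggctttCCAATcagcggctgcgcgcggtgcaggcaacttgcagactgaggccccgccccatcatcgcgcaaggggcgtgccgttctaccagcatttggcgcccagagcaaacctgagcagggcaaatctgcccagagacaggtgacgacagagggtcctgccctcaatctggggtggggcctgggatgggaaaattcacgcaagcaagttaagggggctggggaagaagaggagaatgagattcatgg

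In the 3 heavy chains the NF-kB core came first, the interferon core next and a pair of Y box cores last. Relative to the start, the NF-kB and interferon cores began at base -110 and -91 in H2-K1, at -170 and -151 in H2-D1, and at -132 and -114 in H2-Q7. H2-Q4 held its interferon core at -154 but its NF-kB core 9 bases after the start. Of the class II windows, H2-Aa, H2-Eb1, H2-DMb1, H2-DMb2, H2-Oa and H2-Ob each held a Y box core, which began between -90 and -35. In H2-Aa an X2 form overlapped itself on both strands, beginning at -74 and -73. No searched motif was found in the windows of H2-DMa, Ctss, Ifi30, Psmb10, Erap1, Psme1 or Psme2. The shared stretch between Tap1, a transporter subunit, and Psmb9, an immunoproteasome subunit, held 1 CCAAT core, close to the start of Psmb9.

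No gene of either class showed a change past the test after ADH-503, and the classes as wholes were not tested. No member passed limma's test at an adjusted p (Benjamini-Hochberg over all 30996 genes) of 0.05 at 48 h or at 10 days against vehicle, or at 10 days against 48 h. The share of all genes called was 0% in each of the 3 comparisons. At an unadjusted p under 0.05, 0 of 31 members passed in any comparison, where 791 genes (2.55%) did at 48 h, 1097 (3.54%) at 10 days and 1084 (3.5%) between the times. The smallest unadjusted p of a member was 0.221 at 48 h, 0.296 at 10 days and 0.205 between the times, and the smallest adjusted p was 1.0 in each. No member's groups were free of overlap in any comparison, against 0.142%, 0.21% and 0.513% of all genes.

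The arrays also bounded how large a change could have gone unseen. Members' log2 fold changes lay between -0.18 and 0.12 at 48 h and between -0.26 and 0.12 at 10 days. All 31 intervals (95%) stayed within 1 log2 unit either way in each comparison. At 48 h 28 of 31 stayed within 0.5, and at 10 days 24 of 31 did. A 2-fold change in the probe used for any member was therefore outside its interval in this fit, which has no slide term. Other probes of the same genes were given no interval. At 10 days the differences of 2 of them, of H2-DMb1 and H2-Ob, were -0.53 and -0.51.

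**Figure D1:**
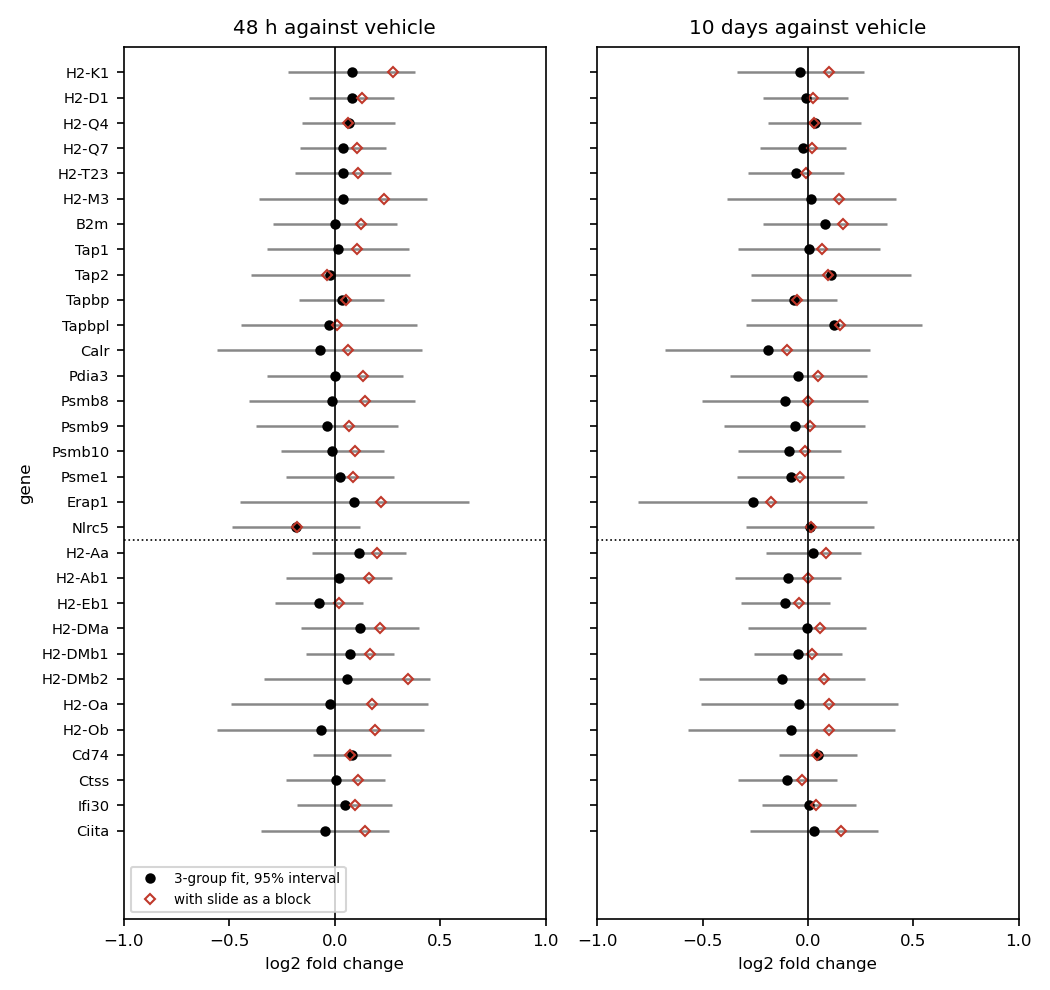
Log2 fold change of each of the 31 tested genes at 48 h (left) and 10 days (right) against vehicle, with limma's 95% interval (bars) from the fit of the 3 groups, and the value with slide as a block (open diamonds); class I genes are above the dotted line and class II genes below. Every interval crosses 0, and the blocked values at 48 h lie above 0 for 29 of 31 genes.

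By class, the median log2 fold change at 48 h was 0.02 over the 19 class I genes, 12 of them above 0, and 0.03 over the 12 class II genes, 8 of them above 0. The median of all genes was -0.01. At 10 days the medians were -0.04 for class I, with 7 of 19 above 0, and -0.04 for class II, with 4 of 12 above 0, beside -0.01 for all genes. Averaged over its genes, class I stood at 2.75 ± 0.15 (SD, n = 6) in vehicle tumours, 2.76 ± 0.09 (n = 5) at 48 h and 2.72 ± 0.14 (n = 5) at 10 days, in log2 units relative to each array's 75th percentile. Class II stood at 4.24 ± 0.15, 4.26 ± 0.13 and 4.20 ± 0.19 in the same groups. The differences between groups were smaller than the spread within them.

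The arrays lie on 2 slides that the groups do not fill evenly. The vehicle group had 1 array on slide 1 and 5 on slide 2, the 48 h group 4 and 1, and the 10 day group 3 and 2. With group in the model, 28 of 31 members were higher on slide 2 (90.3%), as were 52.1% of all genes and 67.9% of the 5904 brighter genes, those with a mean of 14 or more in the authors' table. With slide as a block the class I median was 0.10 at 48 h and 0.02 at 10 days, and the class II median 0.17 and 0.05. At 48 h 29 of 31 members then lay above 0, where 20 of 31 had without the block, beside 48.4% and 46.7% of all genes. At 10 days 23 of 31 lay above 0 with the block and 11 of 31 without it, beside 50.2% and 48% of all genes. With the block still no member was called, and 0 of 31 had an unadjusted p under 0.05, against 3.2% of all genes at 48 h and 3.97% at 10 days.

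Within slide 1, 18 of 31 members were higher at 48 h than in the only vehicle array there. Within slide 2, 28 of 31 were higher in the only 48 h array, replicate 5, than in the mean of 5 vehicle arrays. That array carries the same ID number in its title as vehicle replicate 2. The description of vehicle replicate 2 gives another number, so its title and description conflict, and the labels do not settle which is right. The 2 arrays correlated at 0.949 over all genes, where only 6 of 120 pairs of arrays correlated less. Without it, the medians at 48 h were -0.04 for class I and -0.02 for class II. Without both arrays of that number they were -0.08 and 0.01.

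Of the classical heavy chains, which carry the peptide groove seen by CD8 T cells, H2-K1 (probe at chromosome 17, 34133984 to 34134043, mm9) was lowest at 4.25, median 4.68 and highest at 4.77 in the 6 vehicle arrays. At 48 h it read 4.55, 4.52, 4.49, 4.57 and 5.20, and at 10 days 4.42, 4.58, 4.53, 4.52 and 4.70. A single 48 h array stood above all others, and the rest of that group lay inside the vehicle range. The log2 fold change was 0.08 ± 0.14 (SE) at 48 h and -0.04 ± 0.14 at 10 days. With slide as a block these were 0.28 ± 0.14 (unadjusted p = 0.0699, limma) and 0.10 ± 0.13, and without 48 h replicate 5 the first was -0.05.

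H2-D1 (chromosome 17, 35403886 to 35403945), the second classical heavy chain, ran from 4.96 over a median of 5.14 to 5.39 in vehicle tumours. It read 5.13, 5.15, 5.31, 5.32 and 5.25 at 48 h, and 5.04, 5.15, 5.20, 5.18 and 5.15 at 10 days. Every treated value lay inside the vehicle range. Its log2 fold changes were 0.08 ± 0.09 and -0.01 ± 0.09, and 0.13 ± 0.11 and 0.02 ± 0.10 with the block.

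The 4 other heavy chains were H2-Q4 and H2-Q7 of the Q region, H2-T23, which makes Qa-1 and presents leader peptides of other class I chains, and H2-M3, which presents formylated peptides. Their log2 fold changes lay between 0.04 and 0.07 at 48 h and between -0.06 and 0.03 at 10 days. H2-M3 varied most among them, from 1.31 to 2.30 over the arrays, with both extremes in the 10 day group.

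B2m (chromosome 2, 121978401 to 121978460), the light chain common to all class I molecules, ran from 3.34 over a median of 3.54 to 3.82 in vehicle arrays. The 48 h arrays read 3.42, 3.35, 3.68, 3.54 and 3.85, and the 10 day arrays 3.90, 3.64, 3.32, 3.57 and 3.82. The 3 groups covered nearly the same range. Log2 fold changes were 0.00 ± 0.14 and 0.08 ± 0.14, and 0.13 ± 0.16 and 0.17 ± 0.14 with the block. The other B2m probe correlated with this one at -0.21 over the 16 arrays.

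Among the loading genes, Tap1 (chromosome 17, 34334022 to 34334081) read 1.60 at the lowest, 2.16 at the median and 2.29 at the highest vehicle array. Values were 2.03, 1.96, 1.90, 2.11 and 2.30 at 48 h, and 1.60, 2.20, 1.98, 2.12 and 2.34 at 10 days. Low arrays occurred in both the vehicle and the 10 day group. The fold changes were 0.02 ± 0.16 and 0.00 ± 0.16, and 0.11 ± 0.19 and 0.07 ± 0.17 with the block. Tap2, its partner, Tapbp (tapasin, which holds the empty class I molecule at the transporter), Tapbpl (a peptide editor related to tapasin), and the chaperones Calr and Pdia3 had log2 fold changes between -0.07 and 0.03 at 48 h and between -0.19 and 0.12 at 10 days. Calr varied from 3.13 to 4.30 among the vehicle arrays alone.

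The immunoproteasome replaces 3 catalytic subunits of the standard proteasome. Psmb8 (chromosome 17, 34337771 to 34337830) was lowest at 2.99, median 3.46 and highest at 3.66 in vehicle arrays. It read 3.46, 3.26, 3.19, 3.33 and 3.70 at 48 h, and 2.63, 3.27, 3.32, 3.57 and 3.67 at 10 days. The first 10 day array was below every other array. Log2 fold changes were -0.01 ± 0.18 and -0.11 ± 0.18, and 0.14 ± 0.21 and 0.00 ± 0.19 with the block.

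Psmb9 (chromosome 17, 34319174 to 34319233) lay between 2.09 and 2.82, median 2.56, in vehicle arrays. At 48 h it read 2.36, 2.27, 2.39, 2.55 and 2.73, and at 10 days 2.15, 2.44, 2.30, 2.64 and 2.65, all within the vehicle range. Its fold changes were -0.04 ± 0.16 and -0.06 ± 0.16. Psmb10, the third subunit, and Psme1, a subunit of the PA28 activator, had log2 fold changes of -0.01 and 0.03 at 48 h and of -0.09 and -0.08 at 10 days. The probe named Psme2b that stood for its symbol had values of 0.03 ± 0.09 and -0.05 ± 0.09.

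Erap1, the aminopeptidase that trims peptides to class I length, had the widest spread of the list. Vehicle arrays ran from -3.05 over a median of -2.58 to -2.38. The 48 h arrays read -2.42, -2.31, -2.74, -3.18 and -2.17, and the 10 day arrays -3.82, -2.58, -2.70, -2.29 and -3.20. One 10 day array lay below all others, but the groups overlapped. Log2 fold changes were 0.09 ± 0.26 at 48 h and -0.26 ± 0.26 at 10 days (limma, unadjusted p = 0.322), and -0.35 ± 0.27 between the times. Its 2 other probes correlated with this one at -0.25 and 0.14, and their difference between the times had the opposite sign, at 0.44 and 0.34. The mean over all its probes was 0.04 at 10 days and 0.14 between the times.

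Nlrc5 (chromosome 8, 97051105 to 97051164), the class I coactivator, ran from 0.44 over a median of 0.78 to 1.25 in vehicle arrays. It read 0.45, 0.65, 0.84, 0.70 and 0.55 at 48 h, and 0.80, 1.16, 0.61, 0.80 and 0.79 at 10 days. The 48 h values sat in the lower part of the vehicle range. The log2 fold change was -0.18 ± 0.14 at 48 h (95% interval -0.49 to 0.12), the lowest of the members there, and 0.01 ± 0.14 at 10 days. The blocked values were -0.18 ± 0.17 and 0.01 ± 0.16, and the difference between the times was 0.19 ± 0.15.

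**Figure D2:**
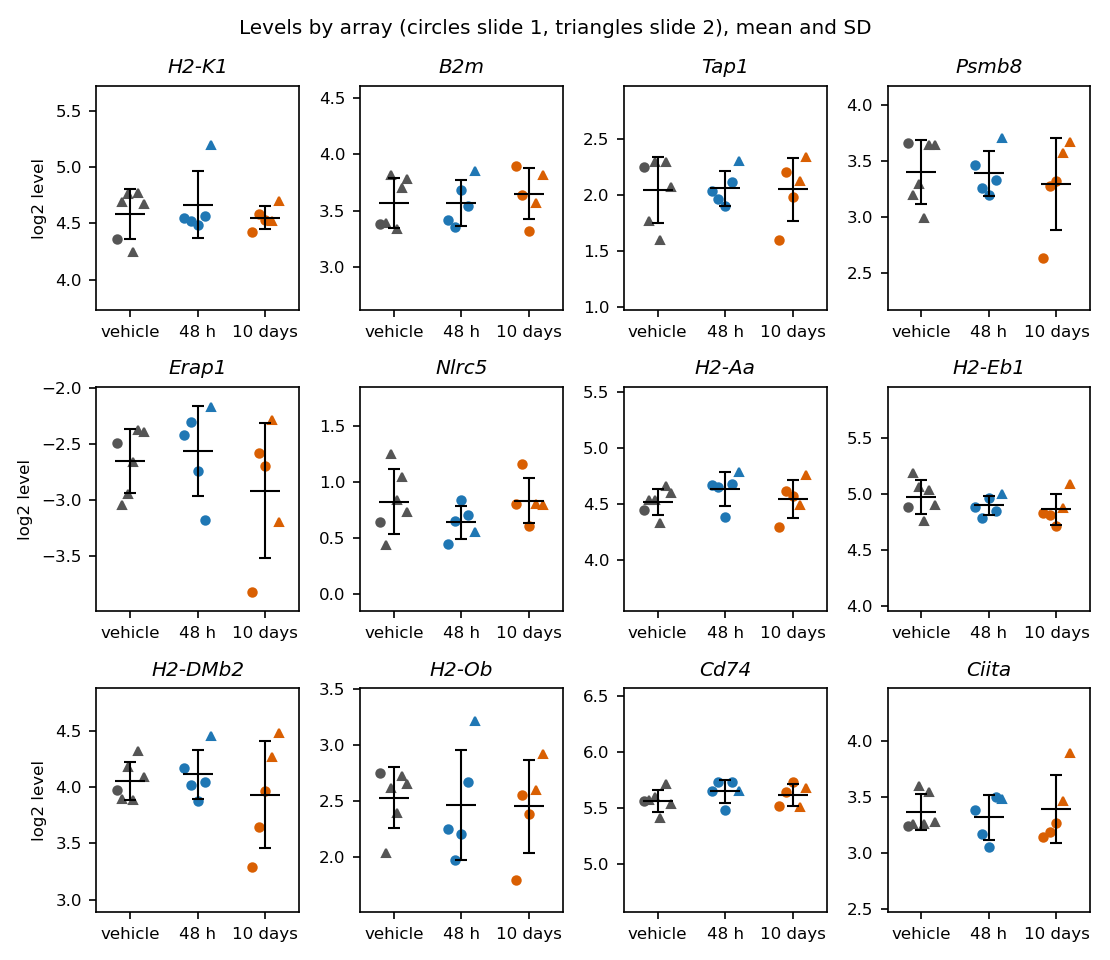
Log2 level of 12 genes on each array, by group, with the group mean and SD (bars); circles are slide 1 and triangles slide 2, and every panel spans 2 log2 units. For each gene shown the groups overlap, with single arrays apart such as H2-K1 at 5.20 at 48 h and Erap1 at -3.82 at 10 days.

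Turning to class II, H2-Aa (chromosome 17, 34421285 to 34421344), the alpha chain of I-A, lay between 4.33 and 4.66, median 4.54, in vehicle arrays. It read 4.67, 4.65, 4.39, 4.68 and 4.79 at 48 h, and 4.30, 4.62, 4.57, 4.49 and 4.76 at 10 days. At 48 h 4 of 5 arrays were above the vehicle mean. Its fold change was 0.12 ± 0.10 at 48 h (interval -0.11 to 0.34) and 0.03 ± 0.10 at 10 days, and 0.20 ± 0.12 and 0.08 ± 0.11 with the block.

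H2-Ab1 (chromosome 17, 34406296 to 34406355), the beta chain of I-A, ran from 4.89 over a median of 5.19 to 5.38. The 48 h arrays read 5.06, 4.98, 5.17, 5.26 and 5.40, and the 10 day arrays 5.16, 4.89, 4.98, 5.13 and 5.13. Log2 fold changes were 0.02 ± 0.12 and -0.09 ± 0.12, and 0.16 ± 0.12 and 0.00 ± 0.12 with the block. The I-E beta chain H2-Eb1 (chromosome 17, 34453075 to 34453134) has no alpha partner in C57BL/6 mice, whose alpha chain gene is defective. Its vehicle arrays ran from 4.76 over a median of 4.97 to 5.19. It read 4.89, 4.79, 4.97, 4.85 and 5.0 at 48 h, and 4.83, 4.81, 4.72, 4.88 and 5.09 at 10 days. The fold changes of -0.08 ± 0.10 and -0.11 ± 0.10 (limma, unadjusted p = 0.296 at 10 days) became 0.02 ± 0.11 and -0.04 ± 0.10 with the block.

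Cd74, the invariant chain, varied least of all 31 members. Vehicle arrays ran from 5.41 over a median of 5.57 to 5.71. The 48 h arrays read 5.65, 5.73, 5.48, 5.73 and 5.65, and the 10 day arrays 5.52, 5.64, 5.73, 5.51 and 5.68. Within groups its SD was 0.10, and its fold changes were 0.08 ± 0.09 (interval -0.10 to 0.27) and 0.05 ± 0.09. They hardly differed with the block, at 0.07 ± 0.11 and 0.04 ± 0.10.

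Ctss, the cathepsin that cuts the invariant chain, ran from 4.62 over a median of 4.86 to 5.10 in vehicle arrays. It read 4.86, 4.69, 5.02, 4.75 and 4.92 at 48 h, and 4.88, 4.60, 4.58, 4.92 and 4.75 at 10 days. Fold changes were 0.00 ± 0.11 and -0.10 ± 0.11, and 0.11 ± 0.12 and -0.03 ± 0.11 with the block. Ifi30, the thiol reductase that unfolds endosomal proteins, stood at 0.05 ± 0.11 and 0.0059 ± 0.11.

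The peptide exchange genes code for H2-DM, which loads class II, and H2-O, which restrains it. H2-DMb2 (chromosome 17, 34284764 to 34284823) ran from 3.89 over a median of 4.03 to 4.32 in vehicle arrays. It read 4.17, 4.02, 3.88, 4.05 and 4.46 at 48 h, and 3.29, 3.65, 3.97, 4.27 and 4.48 at 10 days. At 10 days the 3 arrays of slide 1 were the 3 lowest of their group. Its fold changes of 0.06 ± 0.19 and -0.12 ± 0.19 became 0.35 ± 0.17 and 0.08 ± 0.16 with the block, the first with the smallest blocked p of any member there (limma, unadjusted p = 0.0597).

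H2-Ob, the beta chain of H2-O and in textbooks a gene of B cells and some dendritic cells, ran from 2.04 over a median of 2.64 to 2.75 in vehicle arrays. At 48 h it read 2.25, 1.98, 2.21, 2.67 and 3.22, and at 10 days 1.80, 2.56, 2.39, 2.60 and 2.92. The array at 3.22 is 48 h replicate 5, which also had the highest mean of the 10 B cell markers, 2.09, where the other 48 h arrays had -0.19 to 1.05. The part of B cells in this value was not tested. Fold changes were -0.07 ± 0.23 and -0.08 ± 0.23, and 0.19 ± 0.25 and 0.10 ± 0.23 with the block.

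H2-DMb1 lay between 3.91 and 4.34, median 4.19, in vehicle arrays. It read 4.14, 4.11, 4.24, 4.31 and 4.38 at 48 h, and 4.07, 4.06, 4.04, 4.13 and 4.28 at 10 days. The difference between the times was -0.12 ± 0.10, with an unadjusted p of 0.264 in limma. The other H2-DMb1 probe correlated with the probe used at 0.39. Its differences were 0.15 at 48 h, -0.53 at 10 days and -0.69 between the times. H2-DMa and H2-Oa, the alpha chains, stood at 0.12 ± 0.13 and -0.02 ± 0.22 at 48 h and at 0.00 ± 0.13 and -0.04 ± 0.22 at 10 days.

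Ciita (chromosome 16, 10526458 to 10526517), the class II coactivator, ran from 3.24 over a median of 3.27 to 3.60 in vehicle arrays. It read 3.38, 3.17, 3.05, 3.5 and 3.48 at 48 h, and 3.14, 3.19, 3.27, 3.46 and 3.89 at 10 days. The last 10 day array was above all others. Fold changes were -0.05 ± 0.14 and 0.03 ± 0.14, and 0.14 ± 0.15 and 0.16 ± 0.13 with the block.

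Between the 2 times, 26 of 31 members had a value below 0 at 10 days against 48 h, with and without the block, where 51.2% of all genes lay above 0, or 51.3% with the block. The medians were -0.06 for class I and -0.07 for class II, beside 0.01 for all genes, and -0.09 and -0.10 with the block. No difference passed, and with 1 array left out in turn the class II median ran from -0.13 to -0.02. Within slide 1 the medians were -0.10 and -0.11, and within slide 2 -0.08 and -0.07. Such a count was not particular to the members. In the standard proteasome list, described below, 15 of 16 genes lay below 0, at a median of -0.10, or -0.15 with the block. In class I folding and other peptide handling 8 of 10 did. Interferon-gamma signalling had 6 of 13 below 0 and the promoter partners 4 of 10. The further class I list had 10 of 18, endosomal proteases and class II turnover 7 of 11 and costimulation 4 of 7.

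Genes around the pathway gave the same count of calls. In each of 7 further lists, 0 genes were called in any comparison. Of 13 genes of interferon-gamma signalling, 4 lay above 0 at 48 h and 4 at 10 days, with medians of -0.03 and -0.04. With slide as a block 10 of 13 lay above 0 at 48 h and 6 of 13 at 10 days, with medians of 0.06 and -0.0042. Ifng itself stood at -0.25 ± 0.49 and -0.15 ± 0.49. The 10 partners of the promoter complex had medians of 0.02 and -0.02. The 18 genes tested of the further class I list had medians of 0.00 and -0.03. That list also holds H2-Ke6, which is not a class I gene. The 10 genes of class I folding and other peptide handling had medians of 0.03 and -0.04. The 11 endosomal proteases and class II turnover genes had 0.03 and -0.01.

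The standard proteasome list holds 16 genes, among them Psme3 and Psme4, which code for activators and not for subunits. Its median was 0.02 at 48 h, with 9 of 16 above 0, and 0.11 with 15 of 16 above 0 with slide as a block. At 10 days its median was -0.11, and the 1 of 16 above 0 was the activator Psme4, at 0.0016. With slide as a block 3 of 16 lay above 0 at 10 days, at a median of -0.02. Of the 7 genes tested in the costimulation list, 1 lay above 0 at 10 days, at a median of -0.29. That list also holds the inhibitory ligands Cd274 and Pdcd1lg2, which stood at -0.29 ± 0.15 and -0.47 ± 0.28 at 10 days. Cd83, a marker of mature dendritic cells, was the 1 gene of the list with an unadjusted p under 0.05 there, at -0.30 ± 0.13 (unadjusted p = 0.0354, adjusted p = 1.0, limma). Cd80, a ligand of CD28, stood at -0.32 ± 0.15. Between the times the only such gene was Cd274, the PD-L1 gene, at -0.36 ± 0.16 (limma, unadjusted p = 0.0426, adjusted p = 1.0).

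The members differed more from tumour to tumour than from group to group, and they did so together. Of 465 pairs of members, 385 correlated above 0 over the 16 arrays. The mean Pearson correlation was 0.28 over the 171 pairs within class I, 0.47 over the 66 pairs within class II and 0.36 over the 228 pairs across the classes. Over all genes it was 0.024, and over the brighter genes 0.11. The points are the same 16 arrays throughout, which share one scaling, so these values are given as a description.

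**Figure D3:**
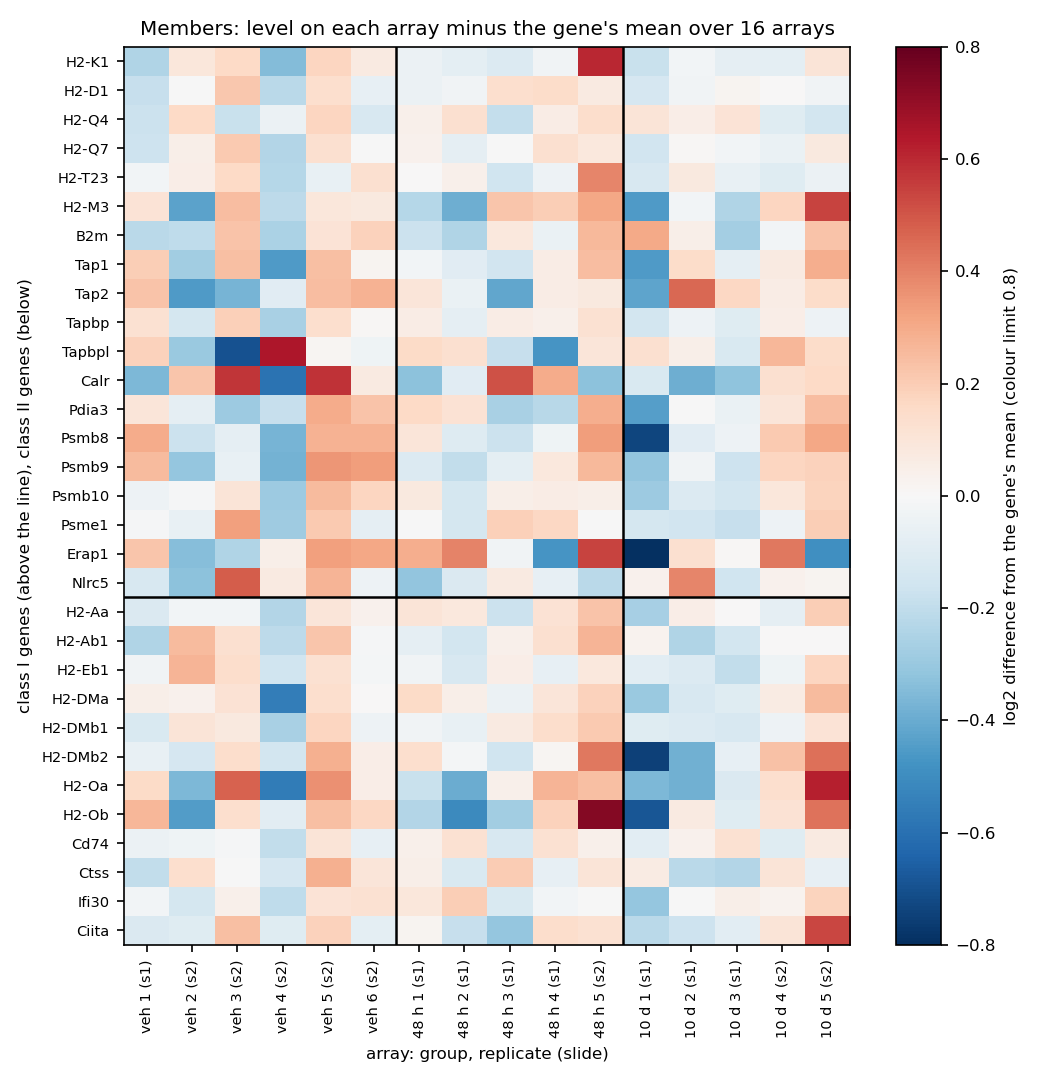
Level of each of the 31 genes (rows) on each of the 16 arrays (columns, by group, with slide 1 or 2 as s1 or s2) minus that gene's mean, on a log2 colour scale limited at 0.8 either way. Whole columns are red or blue: vehicle replicate 5 was above the gene's mean for 30 of 31 genes, 48 h replicate 5 for 28 and 10 day replicate 5 for 25, while vehicle replicate 4 was above it for 3.

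Tumours high or low across the list occurred in every group. Vehicle replicate 4 had the lowest value of 13 of 31 members and 10 day replicate 1 that of 9. The highest values lay in 48 h replicate 5 for 8 members, and in vehicle replicate 5 and 10 day replicate 5 for 6 each. The class I mean ran from 2.5 in 10 day replicate 1 to 2.95 in vehicle replicate 5, and the class II mean from 3.98 in 10 day replicate 1 to 4.48 in 10 day replicate 5.

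Of 465 pairs, 15 exceeded 0.8, of which 7 lay within class I, 1 within class II and 7 across the classes. Psmb8 and Psmb9, both immunoproteasome subunits, correlated at 0.87, and so did the heavy chains H2-D1 and H2-Q7. H2-K1 correlated with H2-D1 at 0.58 and with H2-Q7 at 0.73. H2-Q4, whose promoter window held the same cores as theirs, correlated with H2-D1 at 0.06, with H2-Q7 at 0.08 and with H2-K1 at 0.28. The part of the promoters in these values was not tested. Tap1 and Psmb8 correlated at 0.84. H2-Ab1 and H2-DMb1 correlated at 0.87, and across the classes H2-M3 and H2-Oa did at 0.87. The other pairs over 0.8 included Psmb8 with the chaperone Pdia3 at 0.86 and Psme1 with H2-Oa at 0.84.

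Against the mean of the other genes of their class, 10 of 19 class I and 10 of 12 class II genes correlated above 0.5. Tap1 reached 0.88 and Psmb9 0.88, and in class II H2-DMb2 reached 0.84 and H2-DMa 0.83. The members furthest from their class were Tapbpl at -0.29 and H2-Q4 at -0.20. Tapbpl ran against H2-D1 at -0.77, with its highest value in vehicle replicate 4 and its lowest in vehicle replicate 3. The coactivator Nlrc5 correlated with the rest of class I at 0.15, where Ciita did with the rest of class II at 0.78. Those 2 coefficients were not compared by a test.

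**Figure D4:**
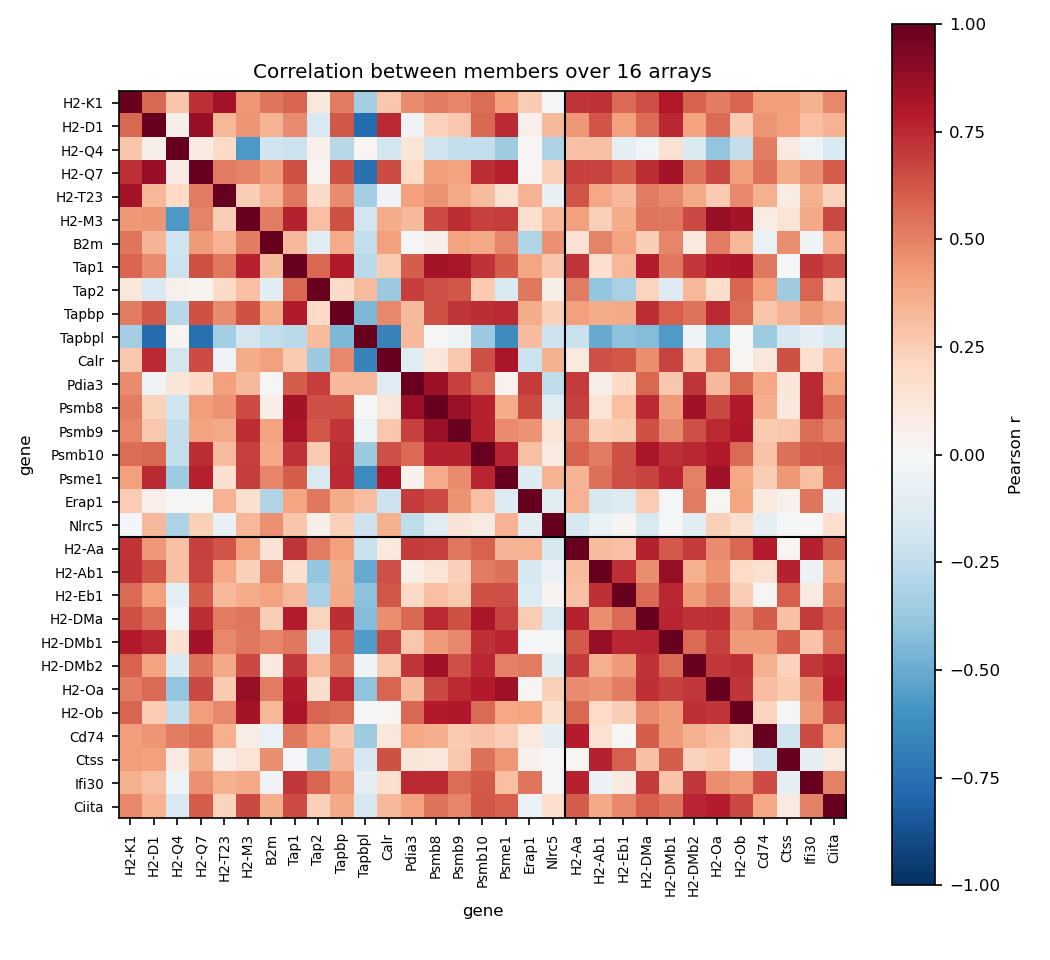
Pearson correlation of each pair of the 31 genes over the 16 arrays, class I first and class II after the black line. Most cells are red, with 385 of 465 pairs above 0; the rows of Tapbpl, H2-Q4 and Nlrc5 are the palest or bluest of class I.

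The class means correlated with each other at a Pearson r of 0.87 (Spearman rho 0.82, n = 16). Without the 2 arrays farthest from the class II median, both of the 10 day group, r was 0.84. Taken as deviations from group means it was 0.87, and it was 0.72 within slide 1 and 0.89 within slide 2 (8 arrays each). The authors' quantile-normalized values gave 0.87. Both means also followed the mean of the brighter genes, at 0.68 for class I and 0.80 for class II, but at 0.33 and 0.14 in the quantile-normalized table. The part of overall signal in the shared movement was not tested further.

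Marker lists of the cells that could carry these genes were set beside the class means, with no test between the coefficients. The mean of 10 dendritic cell markers correlated at 0.74 with class I and at 0.80 with class II (rho 0.69 and 0.75), and at 0.67 and 0.68 without the 2 farthest arrays. Within slides these were 0.70 and 0.88 on slide 1 and 0.68 and 0.70 on slide 2, and in the quantile-normalized table they were 0.68 and 0.83. All 10 dendritic markers were well above background on all 16 arrays. Cd209a, a lectin of monocyte-derived dendritic cells, stood at 0.88 and 0.83, and Flt3, the receptor of the dendritic growth factor, at 0.62 and 0.64. Xcr1, a marker of cross-presenting dendritic cells, stood at -0.03 and 0.06, and Siglech, of plasmacytoid cells, at -0.34 and -0.20. Batf3, Clec9a and Itgae, also markers of cross-presenting dendritic cells, stood at 0.61 and 0.61, 0.40 and 0.38, and 0.48 and 0.69. Zbtb46, Ccr7 and Fscn1 stood at 0.45 and 0.50, 0.48 and 0.39, and 0.41 and 0.52.

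Macrophage and monocyte markers, 11 tested, correlated at 0.56 with class I and 0.48 with class II, and at 0.38 and 0.15 in the quantile-normalized table. Within slides these were 0.60 and 0.49 on slide 1 and 0.81 and 0.82 on slide 2. B cell markers correlated at 0.38 and 0.36, and at 0.08 and 0.18 without the 2 farthest arrays. T cell markers stood at 0.20 and 0.27, and natural killer markers at -0.02 and -0.17. Ductal and tumour epithelium markers ran the other way, at -0.51 and -0.48. The standard proteasome list, made by every cell, correlated with class I at 0.78 and with class II at 0.66. The part of cell makeup in the members' movement was not tested.

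**Figure D5:**
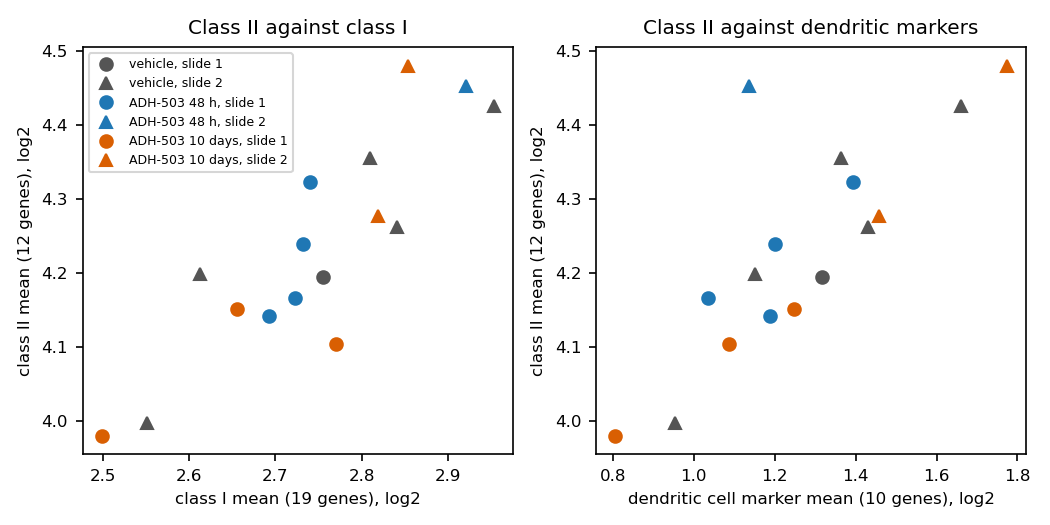
Class II mean of each array against its class I mean (left) and against the mean of 10 dendritic cell markers (right), all in log2 units, coloured by group, with circles for slide 1 and triangles for slide 2. The groups are mixed along both clouds, from 10 day replicate 1 at the lower left (class I 2.5, class II 3.98) to 10 day replicate 5 near the top (2.85, 4.48); 48 h replicate 5 lies left of the right-hand cloud.

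No gene of these lists was called between the groups. The dendritic mean stood at 1.31 ± 0.24 in vehicle tumours (range 0.95 to 1.66), 1.19 ± 0.13 at 48 h (1.04 to 1.39) and 1.27 ± 0.37 at 10 days (0.81 to 1.77), and 0 of its 10 markers had an unadjusted p under 0.05 in any comparison. The macrophage and monocyte mean stood at 3.31 ± 0.11, 3.39 ± 0.08 and 3.30 ± 0.06, and the B cell mean at 0.63 ± 0.71, 0.75 ± 0.94 and 0.67 ± 0.22.

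Markers of some other cells of the tissue had larger differences, though none of these genes was called either. Between the times, where 26 of 31 members lay below 0, the 10 markers of acinar cells, which make the digestive enzymes, had a median of -1.08. Of these, 9 of 10 lay below 0 and 8 of 10 had an unadjusted p under 0.05 in limma, or 6 with slide as a block, beside 3.5% and 3.55% of all genes. The acinar mean stood at 1.21 ± 0.60 in vehicle tumours (0.40 to 1.92), 1.98 ± 0.26 at 48 h (1.56 to 2.25) and 0.99 ± 0.96 at 10 days (0.09 to 2.24). It correlated with class I at -0.29 and with class II at -0.31, at 0.61 and 0.51 within slide 1, and at -0.52 and -0.45 within slide 2. The part of acinar tissue in the members' difference between the times was not tested.

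Against vehicle, the 6 erythroid markers had medians of -1.85 at 48 h and -1.71 at 10 days. An unadjusted p under 0.05 in limma was found for 3 and 4 of the 6, beside 2.55% and 3.54% of all genes. With the block it was 0 at both times, beside 3.2% and 3.97%. Of these markers, Hbb-b1 was well above background on 7 arrays and Hbb-bt on 12. The 9 neutrophil markers had medians of -0.33 and -0.65. Ductal and tumour epithelium markers had medians of 0.11 and -0.57, and -0.28 and -0.85 with the block. Of the 10 B cell markers, 8 lay above 0 at 48 h, at a median of 0.12, and all 10 did with the block, at 0.49. Fibroblast markers had medians of -0.20 and -0.06, endothelial markers -0.66 and -0.27, and islet markers -0.58 and -0.16. The part of these cells in the members' values was not tested.

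Signal was also read from related class I and class II genes. Both probes named H2-L, a heavy chain that C57BL/6 mice lack, were well above background on all 16 arrays, as were 3 of 4 probes of H2-Q10, a heavy chain secreted mainly by liver. The probe of H2-Ea-ps, the defective I-E alpha chain, was so on 11 arrays. The source of this signal was not tested.

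Different probes of 1 gene did not always move alike. Of 21 other probes of 14 members above background on at least 5 arrays, the median correlation with the probe used was 0.51, from -0.25 for Tap2 to 0.89 for Pdia3. At 48 h 9 of the 21 had a difference of the opposite sign to that of the probe used, and at 10 days 8 did.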

How the data were processed

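RNA of 16 tumour samples was read, 1 array each. Per the file headers, the authors' scanner files hold red-channel intensity from Agilent Feature Extraction 11.5.1.1, and the deposited series table holds log2 values of 56605 probes, quantile-normalized: its sorted columns differ by at most 0.0043. From the processed signal, control spots and outlier spots were left out, spots of a probe averaged, and each array's 75th percentile (signal 4953 to 6736) subtracted on the log2 scale. Between 74.9% and 81.2% of probes were well above background, and 0 spots were saturated. A gene was tested where at least 5 arrays read its probe well above background. limma 3.58.1 in R 4.3.3 fitted the 3 groups in 1 model with robust eBayes, and Benjamini-Hochberg adjusted p-values over all genes; the number of arrays limits the precision. The script was tested on simulated data. The members and lists were chosen with earlier results of these data known. Named with the value of every treated array, and the lowest, median and highest vehicle array, are 14 members picked by role and the 3 of smallest p in each comparison. Replicate numbers are in accession order and pair nothing. Alternatives covered normalization, background, filter, probe rule, slide and left-out arrays; correlation alternatives were chosen after seeing the data.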

Additional observations from a re-analysis of the deposited data

Results flagged for a closer look

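In 99 groups of 5 or 6 arrays (31 genes and 2 class means in 3 groups), 5 held an array far from the others by Dixon's criterion at the 95% level, and chance gives about 1 in 20. Of these, 4 were of single genes. H2-K1 in 48 h replicate 5 was 5.20, where the other 48 h arrays lay between 4.49 and 4.57. H2-Q4 in 48 h replicate 3 was 4.91, below the others at 5.14 to 5.24. Psmb10 in 48 h replicate 2 was 3.23, below 3.42 to 3.45. H2-DMa in vehicle replicate 4 was 4.29, below 4.85 to 4.98. The class I mean of 48 h replicate 5 was 2.92, above 2.69 to 2.74; this is the array that shares its ID number with vehicle replicate 2.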

How the results depend on the processing

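No member passed the threshold under any of the 23 alternatives. Of the values of 17 named members in 37 comparisons, 225 of 259 kept their sign under the other 7 alternatives, and 539 of 592 did with 1 array left out. Erap1 turned from -0.26 at 10 days and from -0.35 between the times, and the other values that turned lay between -0.12 and 0.09 at the outset. They were as follows, in log2 units. With slide as a block at 48 h Psmb8 was 0.14, Psmb9 0.07, H2-Eb1 0.02, H2-Ob 0.19 and Ciita 0.14, and at 10 days H2-K1 was 0.10, H2-D1 0.02, Psmb8 0.00026, Psmb9 0.0091, H2-Ab1 0.0026, H2-DMb2 0.08, H2-Ob 0.10 and H2-DMb1 0.02. Without both samples of the shared ID number, H2-K1 was -0.03, B2m -0.10, Tap1 -0.10, H2-DMb2 -0.06 and Erap1 -0.09 at 48 h, and Tap1 -0.05 and Nlrc5 -0.06 at 10 days. In the quantile-normalized table B2m was -0.05, Tap1 -0.0055, H2-Ab1 -0.01 and Ctss -0.04 at 48 h. With the mean over all probes Tap1 was -0.06 and Erap1 -0.10 at 48 h, -0.07 and 0.04 at 10 days, and Erap1 0.14 between the times. With normexp background Psmb8 was 0.0066, H2-Ab1 -0.01 and Ctss -0.03 at 48 h, and Tap1 -0.0059 and Nlrc5 -0.00041 at 10 days. The cause of these turns was not tested.

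With 1 array left out, the values at 48 h ran from -0.05 to 0.12 for H2-K1, -0.07 to 0.06 for B2m, -0.07 to 0.07 for Tap1, -0.10 to 0.04 for Psmb8, -0.12 to 0.03 for Psmb9, -0.04 to 0.07 for H2-Ab1, -0.03 to 0.12 for H2-DMb2, -0.25 to 0.05 for H2-Ob, -0.09 to 0.02 for Ciita, -0.0074 to 0.25 for Erap1 and -0.04 to 0.06 for Ctss. At 10 days they ran from -0.10 to 0.0016 for H2-K1, -0.05 to 0.04 for H2-D1, -0.08 to 0.12 for Tap1, -0.20 to 0.06 for Psmb8, -0.14 to 0.0093 for Psmb9, -0.07 to 0.10 for Nlrc5, -0.03 to 0.09 for H2-Aa, -0.26 to 0.04 for H2-DMb2, -0.20 to 0.09 for H2-Ob and -0.10 to 0.09 for Ciita. The class medians moved most for class II at 48 h, from 0.03 to 0.17 with slide as a block. The SD of the class II mean was 0.15 over the vehicle arrays and 0.13 over the 48 h arrays. Over all genes, 0 to 1 were called with 1 array left out in each comparison, and 1 gene, no member, was called at 48 h and 1 at 10 days without the filter on dim probes. The correlation of the class means was 0.72 within slide 1. No paired analysis was possible because replicate numbers follow accession order and mark no shared animal or batch.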
